A study of Mus musculus with 158 samples.

Results

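Pool 14 of a pooled short hairpin RNA (shRNA) screen held 54 targeting hairpins against 26 mouse genes, out of 1000 targeting hairpins against 285 genes in 19 pools. Its members were all hairpins that the deposited tables assign to that pool, in 9 of the 158 samples of the series. The cells were PDA530 Met, a mouse pancreatic cancer line taken from a liver metastasis. All groups share the infection, at a multiplicity of 0.3, and the selection with puromycin at 3 µg/ml for 4 days. There were 3 libraries of day 0 cells, 3 of cells cultured until day 28, and 3 of lung tumours, 1 per mouse, collected at day 28 after tail vein injection. The labels do not say whether the 3 day 0 libraries come from separate pellets. All tumours of a mouse were pooled, so each lung library describes 1 mouse and many tumours. The 3 culture libraries are named for pools 14 and 15 together, and the labels do not say whether cells or DNA were mixed. The tail vein route tests growth after cells have reached the blood and lodged in the lung, and leaves out escape from a primary tumour. The letters A, B and C name the libraries of an arm.

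An shRNA is cut by the cell into a short guide RNA that lowers the messenger RNA it matches, and the integrated hairpin is passed on at each division. Its share of the genomic DNA therefore rises when cells that carry it leave more descendants than the rest of the pool, and falls when they leave fewer. Lung colonisation adds a bottleneck, because only part of the injected cells found tumours, and a hairpin can become common through 1 large colony. The genes of pool 14 that are named here belong to several processes: the extracellular matrix and adhesion (Col11a1, Col5a1, Fn1, Itga2, Adam8), the cytoskeleton and scaffolds (Cald1, Dst, Akap9, Itsn1, Dnahc11), the secretory pathway and nuclear import (Sec63, Calu, Kpnb1), growth signalling, the cell cycle and DNA damage (Egfr, Igfbp6, Dtx1, Cdkn2b, Atm), transcription (Hsf2, Id4, Tfb2m, Zmym6), and metabolism with 1 channel (G0s2, Gsto1, Kcnn4). Of all 26 genes, 16 had 2 hairpins, 6 had 3 and 4 had 1, and hairpins of 1 gene share their target.

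Reads per library ranged from 3702063 (lung A) to 8264086 (culture B), and all 54 hairpins had reads in all 9 libraries. Pool 14 hairpins took 71.4% to 73.5% of reads at day 0, 32.7% to 36.4% in culture and 77.2% to 85.6% in lungs. The rest were mainly the 8 control hairpins and, in culture, pool 15. Shares below are percent of the pool 14 targeting reads of a library. Their widest 95% Wilson interval spans 0.117 percentage points and covers counting error only, since PCR reads without molecular identifiers are not independent molecules.

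Lung A stood apart from lungs B and C. Over the 54 hairpins, Pearson's r of log2 shares was 0.634 between lungs A and B, 0.598 between A and C, and 0.941 between B and C. At day 0 it was 0.983 to 0.994, and in culture 0.864 to 0.954. The mean over the lung pairs, 0.724, was the third lowest of 17 pools, the others ranging from 0.712 to 0.952 with a median of 0.906. In lung A 3 hairpins made up 75.8% of the pool, and 35 hairpins lay under 0.1%, against 7 in lung B and 12 in lung C. Reads of hairpins from other pools made up 1.04% of lung A, against 0.0587% in lung B and 0.215% in lung C. Values without lung A are given beside some of the main results it moves.

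In lung A the log2 ratio of share to the day 0 mean share of 24 hairpins was in a narrow band. It lay between -7.06 and -6.23, with a median of -6.69 and an SD of 0.19. Across them the log2 shares of lung A and day 0 correlated with r = 0.995, a value that the choice of a narrow band itself makes high. In lungs B and C, which did not enter the choice, the ratios of the same 24 hairpins had SDs of 1.24 and 1.58 and r of 0.827 and 0.840 with day 0, which is no test against lung A. Together they held 41.3% of the pool at day 0, 0.379% in lung A, 23.2% in lung B and 23.0% in lung C. The lung A sum was 0.917% of the day 0 sum. The hairpins were chosen, after the values were seen, by this lung A ratio lying between -7.5 and -6, and 8 of the 10 hairpins called lower in lungs lie in it. Whether the lung A reads of these 24 hairpins come from the tumours of that mouse was not tested, in a library where 1.04% of reads belong to other pools. The shares of lungs B and C do not rest on them.

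The pool became less even in both arms. The effective number of hairpins (the exponential of the Shannon entropy of the shares) was 33.7, 37.4 and 36.2 at day 0, 35.8 ± 1.90 (SD, n = 3). It was 19.2, 22.1 and 20.4 in culture, 20.5 ± 1.48 (SD, n = 3), and 6.21, 20.9 and 19.3 in lungs A, B and C, 15.5 ± 8.06 (SD, n = 3). All culture and lung values lay below all day 0 values, whereas lungs B and C lay within the culture range and lung A far below it. The log2 difference from day 0 was -1.40 for lungs and -0.80 for culture, each with p = 0.1 in a two-sided exact permutation test, the smallest p that 3 against 3 libraries allow. Lungs and culture differed by -0.59 (exact permutation p = 0.5). Without lung A the difference was -0.83 between lungs and day 0 and -0.03 between lungs and culture. Among 49 lung libraries of all pools, lung A had the third lowest effective number.

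Different hairpins led each arm. At day 0 the leader was Dst hairpin TRCN0000376794 (dystonin, a linker of cytoskeletal filaments), at 9.30%, 9.27% and 9.43%. In culture it was Cald1 hairpin TRCN0000305037 (caldesmon, which regulates actomyosin contraction), at 23.9%, 20.6% and 25.4%. Lung A was led by both hairpins of Col11a1, a chain of fibrillar type XI collagen. TRCN0000366646 held 50.6% of lung A but 0.328% of lung B and 0.345% of lung C, after 0.794%, 1.43% and 1.13% at day 0. It was thus the most common hairpin in 1 mouse and below its starting share in both others. The second, TRCN0000366714, held 13.8%, 2.95% and 2.84% of lungs A, B and C, against 2.78%, 2.50% and 2.70% at day 0. Its lowest lung value only just exceeded its highest day 0 value, so the rise in lungs B and C was slight. Akap9 hairpin TRCN0000362770 followed in lung A, then Fn1 hairpin TRCN0000327176 at 3.70% and Zmym6 hairpin TRCN0000295266 at 3.42%.

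Lungs B and C were both led by Hsf2 hairpin TRCN0000429623 (heat shock factor 2, a transcription factor), at 14.6% and 21.3%. In lung A it held 0.322%, and at day 0 5.07%, 4.03% and 4.34%. The other Hsf2 hairpin, TRCN0000425088, held 9.49% of lung B, 9.96% of lung C and 0.447% of lung A, against 5.01%, 4.44% and 4.39% at day 0. Both Hsf2 hairpins were thus above their starting range in the same 2 mice and in plain share more than 2-fold below it in lung A. After TMM scaling the lung A values were -0.58 and -0.15. The other leaders of lung B were Cald1 TRCN0000305037 at 11.3%, Atm TRCN0000360398 at 10.1% and Dst TRCN0000376794 at 8.76%. In lung C they were Cald1 TRCN0000305037 at 9.91%, Dst TRCN0000376794 at 7.15% and Akap9 TRCN0000362770 at 6.29%. Spearman's rho between a lung's shares and the day 0 mean was 0.551 for lung A, 0.804 for lung B and 0.851 for lung C, a description over 54 hairpins.

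Each lung was also set against the day 0 mean on the log2 scale after TMM scaling, with no test because each is 1 library. TMM (trimmed mean of M values) rescales libraries on the assumption that the bulk of hairpins does not move. More than 2-fold higher were 18 hairpins in lung A, 12 in B and 13 in C, and more than 2-fold lower were 27, 17 and 19. Most of the 54 hairpins were thus past 2-fold in each lung, most of all in lung A, so this assumption is doubtful. Over all lung libraries of the series 19.8% of hairpins were past 2-fold higher and 29.5% lower. On plain shares 4, 6 and 5 were higher and 41, 26 and 28 lower, and the shares of a library are not independent of each other. In lung A the largest TMM changes were those of Col11a1 TRCN0000366646 (8.76), Akap9 TRCN0000362770 (5.89) and Col11a1 TRCN0000366714 (5.59). Atm TRCN0000360398, against the DNA damage kinase Atm, went in opposite directions between mice, at -3.56 in lung A, 2.56 in lung B and 1.08 in lung C. Fn1 TRCN0000327176, against fibronectin, was 5.09, 1.63 and 0.93.

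The main comparison asked which hairpins were enriched or depleted in lung tumours. With limma on log2(CPM + 1) of TMM-scaled reads and Benjamini-Hochberg adjustment over the hairpins of all pools, 12 of 54 hairpins (22.2%) passed an adjusted p of 0.05, against 33.8% of all hairpins tested in the series. Higher were 2, where the series had 14.7%, and lower were 10, where the series had 19.1%. The share called in pool 14 is thus below that of the series, chiefly for enriched hairpins. The 12 hairpins target 11 genes, and all keep their sign under TMM, own-pool total, control total and the deposited scaling. edgeR's quasi-likelihood test called 9 hairpins (31.3% in the series), 8 of them among the 12; the exceptions are Kcnn4 TRCN0000349504, Sec63 TRCN0000336301, Igfbp6 TRCN0000328230 and Adam8 TRCN0000351178. The median log2 change of all 54 hairpins was -0.59 after TMM, -2.30 on plain shares and 0.73 with DESeq2's size factors, so single values are to be read against these. Of the calls 16.7% were higher after TMM and 54.2% with DESeq2. With the control total 2 were called, Akap9 TRCN0000362770 and Kcnn4 TRCN0000349504, and with the deposited values 3. Without lung A, 26 hairpins passed (11 higher, 15 lower), including all 12, while the series then had 35.6% (15.8% higher, 19.8% lower). Without day 0 library A, B or C the count was 4, 1 or 2. Sec63 TRCN0000336302 was called in each of these, and Akap9 TRCN0000362770 without A and without C. Without lung B 10 hairpins passed and without lung C 14, and the Itga2 call was lost in both cases.

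Akap9 TRCN0000362770 was enriched in all 3 mice. The gene encodes a scaffold that anchors protein kinase A and other enzymes at the centrosome and Golgi. Its share was 2.12%, 1.57% and 1.72% at day 0, 0.548%, 0.408% and 0.550% in culture, and 11.4%, 5.23% and 6.29% in lungs. The 3 arms do not overlap, with lungs highest and culture lowest. Relative to day 0 the log2 change in lungs was 3.72 (SE 0.99, limma adjusted p = 0.0234), and 2.64 without lung A (limma adjusted p = 0.000302). DESeq2 gave this hairpin no adjusted p. The second Akap9 hairpin, TRCN0000362771, was rare throughout, with 247, 416 and 391 reads at day 0 and 130, 33 and 55 in lungs, and was not called with all lungs (-0.82, limma adjusted p = 0.713). Without lung A it fell (-2.46, limma adjusted p = 0.0135), opposite to the first.

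Itga2 TRCN0000305738 was the other enriched hairpin. Integrin alpha 2 is part of a collagen receptor. Its share was 1.27%, 1.22% and 1.45% at day 0 and 0.947%, 4.46% and 2.75% in lungs. Lungs B and C were above day 0, and lung A was below it in plain share and above it after TMM scaling. The log2 change was 2.50 (SE 0.82, limma adjusted p = 0.0453). The call was lost with the own-pool total (0.79, limma adjusted p = 0.415), the deposited values (1.19, limma adjusted p = 0.292) and the control total (1.70, limma adjusted p = 0.194). The other Itga2 hairpins were not called with all lungs, at -0.04 (TRCN0000348985) and -0.76 (TRCN0000324407). The latter fell without lung A (-2.45, limma adjusted p = 0.0119).

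Among matrix and adhesion genes 1 of 12 hairpins rose and 2 fell in lungs, counts near or below the series shares of 14.7% higher and 19.1% lower. Without lung A 3 rose and 3 fell (series 15.8% and 19.8%). The hairpins that fell were Fn1 TRCN0000306639 and Adam8 TRCN0000351178, the latter against a membrane metalloprotease. The Fn1 hairpin held 1.87%, 2.62% and 2.35% at day 0 and 0.0241%, 0.350% and 0.240% in lungs (-2.45, SE 0.65, limma adjusted p = 0.0231). All 3 mice were below all day 0 libraries. The other Fn1 hairpins were not called, at 2.55 (TRCN0000327176, limma adjusted p = 0.132) and -1.43 (TRCN0000327177, limma adjusted p = 0.289). The Adam8 hairpin held 2.70%, 2.37% and 2.09% at day 0 and 0.0212%, 0.200% and 0.645% in lungs (-2.37, limma adjusted p = 0.0478). The call was lost without lung B (-2.31, limma adjusted p = 0.134) and with the own-pool total (-4.08, limma adjusted p = 0.06). Leaving out 1 library at a time, its log2 change ranged from -3.12 to -1.77, the latter without lung A. The other Adam8 hairpin, TRCN0000351148, held 0.0360%, 3.04% and 4.45% of lungs A, B and C, against a day 0 range of 3.63% to 4.81%.

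Sec63 was the only gene with 2 hairpins called the same way in lungs with all libraries. Sec63 is a membrane protein of the endoplasmic reticulum that works with the translocon in protein import. TRCN0000336302 held 3.37%, 3.01% and 3.07% at day 0 and 0.0292%, 0.331% and 0.234% in lungs. It had the lowest p of the comparison, with a log2 change of -2.87 (SE 0.62, limma adjusted p = 0.00952). TRCN0000336301 went from 2.46%, 2.40% and 2.23% to 0.0222%, 0.221% and 0.528% (-2.39, SE 0.73, limma adjusted p = 0.0362). Without lung A it was at -1.83. This second call was lost without lung B (limma adjusted p = 0.102), without any 1 of the day 0 libraries and with the own-pool total (limma adjusted p = 0.0518). The third, TRCN0000353321, held 1.43%, 1.72% and 1.85% at day 0 and 0.0163%, 0.357% and 0.586% in lungs, without overlap, and was not called (-1.75, limma adjusted p = 0.138). Of the 7 hairpins against secretory pathway and import genes 2 fell (series 19.1%). Without lung A 5 of the 7 fell (series 19.8%), adding Calu TRCN0000328911 and TRCN0000328979 (calumenin, a calcium-binding protein of the secretory pathway) and Kpnb1 TRCN0000325851 (importin beta, the carrier of nuclear import).

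Among signalling, cell cycle and DNA damage genes 3 of 11 hairpins fell, near the series share of 19.1%. Cdkn2b TRCN0000362420, against an inhibitor of CDK4 and CDK6, went from 1.52%, 2.12% and 2.11% to 0.0204%, 0.298% and 0.222% (-2.39, SE 0.66, limma adjusted p = 0.0249). Without lung A it was at -1.92. The second Cdkn2b hairpin, TRCN0000362499, was at 0.33 and not called. Dtx1 TRCN0000340313 (Deltex 1, a ubiquitin ligase linked to Notch signalling) fell by 2.67 (limma adjusted p = 0.0345), a call lost without lung C (limma adjusted p = 0.0513). The second Dtx1 hairpin, TRCN0000340312, was at -0.94 and not called. Igfbp6 TRCN0000328230 (a binding protein for insulin-like growth factors) fell by 2.94 (limma adjusted p = 0.0447), a call lost without lung C (-2.07, limma adjusted p = 0.105). Without lung B it was at -4.02 (limma adjusted p = 0.00275). Its plain log2 ratio was -6.38 in lung A, -1.87 in B and -5.69 in C. The other Igfbp6 hairpins were at -1.80 (TRCN0000328228) and -1.18 (TRCN0000328298) and not called.

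The channel and lipid genes also had falling hairpins, 2 of 5 in the metabolism and channel group (series 19.1%). Of 10 cytoskeleton and scaffold hairpins 1 rose and none fell, and none of 6 transcription hairpins was called (series 14.7% higher). Without lung A 3 of the 10 rose and 1 fell, and 2 of the 6 rose (series 15.8% higher, 19.8% lower). Kcnn4 TRCN0000349504, against a calcium-activated potassium channel, had 2185, 4172 and 4348 reads at day 0, 580, 1705 and 1230 in culture, and 34, 111 and 1 in lungs. The log2 change was -5.32 (SE 1.47, limma adjusted p = 0.0260), and without lung C, which held 1 read, it was -3.72, and without lung A -6.77. At such low reads its size depends on the pseudocount, being -2.15 with 100 in place of 1. Without day 0 library B or C it was not called (limma adjusted p = 0.0703 and 0.0575). Lungs were below both other arms in every mouse, and this is the only Kcnn4 hairpin of the pool. G0s2 TRCN0000375050, against an inhibitor of the lipase ATGL, fell by 1.97 (limma adjusted p = 0.0400), a call lost without lung C (limma adjusted p = 0.0753), while G0s2 TRCN0000375051 lay within 0.13 of 0 in each lung after TMM scaling. On plain shares its log2 ratios were -3.08, -0.92 and -0.93, with every lung below every day 0 library.

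Leaving out lung A brought in 14 further hairpins, 9 of them higher. Among these were the Hsf2 hairpins TRCN0000429623 (2.94, limma adjusted p = 9.94e-05) and TRCN0000425088 (2.03, limma adjusted p = 0.00015), and Cald1 TRCN0000305037 (2.19, limma adjusted p = 9.94e-05). With lung A their values were 1.77, 1.31 and 0.85 and were not called. The group also held Atm TRCN0000360398 (1.82), Fn1 TRCN0000327176 (1.28), Col11a1 TRCN0000366714 (1.08) and Dst TRCN0000376794 (0.72). These directions are on the TMM scale. In plain share the Dst hairpin, at 8.76% and 7.15% in lungs B and C, and the Fn1 hairpin in lung C, at 0.962%, lay below all day 0 libraries. These calls rest on 2 mice.

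The second comparison set the cultures against day 0. Of 54 hairpins 21 were called (11 higher, 10 lower) with limma, against 60.6% of all hairpins tested in the series, 28.8% higher and 31.9% lower. edgeR's quasi-likelihood test called 22 (58.5% in the series), including all 21. They target 17 genes. The balance of directions depends on scaling: 52.4% of calls were higher after TMM, 12.9% with own-pool totals, 5.88% with control totals and 6.25% with the deposited values. The control total of a culture library comes with pools 14 and 15, and pool 14 held only 40.4% to 44.4% of their reads. That total thus places every pool 14 value in culture lower. How the deposited values treat mixed pools is not given. The calls of 17 of the 21 kept their sign in all 4 scalings. The exceptions, which turn negative against the control total, include Itga2 TRCN0000305738, Atm TRCN0000360398 and Hsf2 TRCN0000425088.

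Cald1 TRCN0000305037 rose most in culture. It held 4.51%, 4.19% and 4.79% at day 0 and 23.9%, 20.6% and 25.4% at day 28, a log2 change of 3.20 (SE 0.19, limma adjusted p = 8.1e-09). Every culture library was above every day 0 library. In lungs B and C it was at 11.3% and 9.91%, between day 0 and culture, and in lung A at 0.134%. The second Cald1 hairpin, TRCN0000348969, was rare, between 0.0258% and 0.209% in day 0 and culture libraries, and was not called (-0.14, limma adjusted p = 0.870).

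Tfb2m TRCN0000337791, against a mitochondrial transcription factor, rose from 3.18%, 4.02% and 3.81% to 5.12%, 7.62% and 6.00% (1.58, SE 0.25, limma adjusted p = 0.000126). Also higher were Gsto1 TRCN0000366550 (1.88), Calu TRCN0000328978 (1.74), G0s2 TRCN0000375051 (1.72), Fn1 TRCN0000327176 (1.61), Hsf2 TRCN0000425088 (1.32), Itga2 TRCN0000305738 (1.30) and Atm TRCN0000360398 (1.25). The higher calls of Gsto1, G0s2, Fn1, Hsf2, Itga2 and Atm were lost with the own-pool total, and with the control total and the deposited values those of Tfb2m and Calu were lost as well. Of the hairpins named here, those against Cald1, Tfb2m, Hsf2 and Calu had shares above day 0 without overlap.

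The hairpins that fell in culture included both Sec63 hairpins that fell in lungs. TRCN0000336302 was at 0.765%, 0.441% and 0.733% in culture (-1.50, SE 0.33, limma adjusted p = 0.00163), and TRCN0000336301 at 0.294%, 0.147% and 0.683% (-2.10, SE 0.52, limma adjusted p = 0.00389). Every culture value lay below every day 0 value for both. Calu TRCN0000328979 fell from 3.67%, 2.97% and 2.97% to 0.439%, 0.557% and 0.413% (-1.94, SE 0.33, limma adjusted p = 0.00023), whereas Calu TRCN0000328978 rose from 1.83%, 2.95% and 2.56% to 3.08%, 7.83% and 3.84%. Hairpins against Itga2 split in the same way, with TRCN0000305738 higher and TRCN0000348985 lower (-2.06, limma adjusted p = 0.00576). Egfr TRCN0000334115, against the epidermal growth factor receptor, fell from 1.54%, 1.51% and 1.57% to 0.216%, 0.284% and 0.318% (-1.68, SE 0.38, limma adjusted p = 0.00181). The second Egfr hairpin, TRCN0000334048, was at 0.54 and not called.

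Also lower in culture were Col5a1 TRCN0000313469 (-1.79, limma adjusted p = 0.00292), against a chain of fibrillar type V collagen, and Adam8 TRCN0000351178 (-1.51, limma adjusted p = 0.00644). Zmym6 TRCN0000295266, against a zinc finger protein, fell by 1.08 and Itsn1 TRCN0000328006, against the endocytic scaffold intersectin 1, by 1.06. Akap9 TRCN0000362770 fell by 1.01 (limma adjusted p = 0.0375). The Itsn1 and Akap9 calls were lost without any 1 of the day 0 libraries and without culture C, and the Itsn1 call also without culture A. Against series shares in culture of 28.8% higher and 31.9% lower, 3 of 7 secretory pathway and import hairpins fell and 1 rose in culture, and 3 of 12 matrix and adhesion hairpins fell and 2 rose. Of the 11 signalling, cell cycle and DNA damage hairpins 1 rose and 1 fell. In the metabolism and channel group 2 of 5 rose. Of 10 cytoskeleton and scaffold hairpins 1 rose and 2 fell, and of 6 transcription hairpins 2 rose and 1 fell. Lungs and culture are both set against the same day 0 libraries, so the values of a hairpin in these comparisons are not independent.

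The direct comparison of lungs with culture called 3 of 54 hairpins with limma (1 higher, 2 lower), against 24.9% of all hairpins in the series, 11.6% higher and 13.3% lower. Akap9 TRCN0000362770 was higher in lungs than in culture by 4.83 (SE 1.17, limma adjusted p = 0.00379), with every lung above every culture library, and by 3.77 without lung A. Kcnn4 TRCN0000349504 was lower by 5.08 (SE 1.49, limma adjusted p = 0.0136). Leaving out 1 library at a time, its difference ranged from -6.48, without lung A, to -3.99. All 3 were among the 7 that edgeR called (25.0% in the series). They were also among the 8 that limma called without lung A, when the series had 25.6% (11.9% higher, 13.7% lower). DESeq2 called 5 (289 of 889 in the series), and only 1 of these was among the 3. Without lung B 6 were called, and without lung C 7. Without culture B or C the Kcnn4 call was lost (limma adjusted p = 0.06 and 0.0681). Of the calls 33.3% were higher with TMM and limma and 75.0% with the control total. Those added without lung A included Hsf2 TRCN0000429623 (2.87) and Egfr TRCN0000334115 (2.14), higher in lungs, and Cald1 TRCN0000305037 (-0.89) and Itga2 TRCN0000324407 (-3.64), lower in lungs.

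Shares alone give a similar picture of few separated gains. Against day 0, 2 hairpins had every lung above every starting library (series 13.5%), Akap9 TRCN0000362770 and Col11a1 TRCN0000366714, and 31 had every lung below (series 46.0%). In culture 5 hairpins were above without overlap (series 21.2%) and 26 below (series 52.9%). Between the day 28 arms 3 hairpins were higher in every lung (series 20.1%) and 15 lower (series 25.5%). The 3 were those same Akap9 and Col11a1 hairpins and Zmym6 TRCN0000295266, which held 3.42%, 2.40% and 1.44% of lungs and 1.06%, 0.761% and 0.796% in culture.

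The genes of pool 14 were also read in other libraries, since 20 of the 26 had 33 further hairpins in 6 other pools. The 1 of these in pool 15, against Id4, shares the culture libraries. In lungs against day 0, 4 of the 33 were called higher and 5 lower, where the series had 14.7% and 19.1%. In culture 17 were higher and 11 lower, where the series had 28.8% and 31.9%. Cald1 hairpin TRCN0000108680 in pool 5 rose in culture like the pool 14 hairpin (2.67, limma adjusted p = 1.18e-06), and rose in lungs (2.86, limma adjusted p = 0.000314), where the pool 14 hairpin was called only without lung A. Also called in culture in the direction seen in pool 14 were hairpins against Itsn1 (TRCN0000026163, -0.79), Gsto1 (TRCN0000103104, 0.98) and G0s2 (TRCN0000126076, 0.37). So was Atm TRCN0000012643 in pool 2 (0.56, limma adjusted p = 0.00644). Called in culture against a pool 14 hairpin's direction were Zmym6 TRCN0000103905 (1.73), Col5a1 TRCN0000090002 (0.63), Egfr TRCN0000055222 (2.56) and Adam8 TRCN0000031786 (0.75). Egfr TRCN0000055221 (-0.58) and Adam8 TRCN0000031784 (-1.05) were called in culture in the pool 14 direction. Cdkn2b went the other way in lungs, where TRCN0000042600 in pool 4 rose by 2.65 (limma adjusted p = 0.00538). Kcnn4 TRCN0000068398 in pool 6 also rose in lungs (1.01, limma adjusted p = 0.0249), opposite to the pool 14 hairpin. The other pool 6 hairpin, TRCN0000068400, was lower in lungs than in culture (-1.43, limma adjusted p = 0.0195). Against day 0 it rose in culture (1.32, limma adjusted p = 0.000289) and was at 0.03 in lungs, not called. The pool 14 hairpin was instead at -0.06 in culture and -5.32 in lungs. TRCN0000068398 also rose in culture (0.72, limma adjusted p = 8.51e-05).

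The Akap9 hairpins of pool 4, TRCN0000088588 and TRCN0000088589, were at 0.76 and -0.54 in lungs against day 0 and at -0.81 and -0.40 in lungs against culture, and were not called in either. In culture the first rose by 2.19 (limma adjusted p = 0.0041), opposite to the pool 14 hairpin. The Hsf2 hairpins of pool 6 were at 0.45 and -0.55 in lungs against day 0, not called, and were called in opposite directions in culture (0.42 and -0.62). Col11a1 TRCN0000091193 in pool 4 was at 0.58 in lungs, not called, and rose in culture by 1.54 (limma adjusted p = 1.16e-06). Tfb2m hairpins in pool 6 fell in culture, by 1.18 and by 1.87, opposite to pool 14. Kpnb1 TRCN0000112418 in pool 7 fell in lungs by 1.82 (limma adjusted p = 0.0265), and both Kpnb1 hairpins there fell in culture. Sec63, Fn1, Calu, Itga2 and Igfbp6 had no hairpin in another pool.

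The 8 control hairpins present in every pool were measured per 100 targeting reads, counting both pools in culture. Their sum was 39.9, 34.9 and 38.7 at day 0, 23.2, 21.8 and 25.3 in culture, and 28.2, 17.5 and 16.5 in lungs. The log2 difference from day 0 was -0.91 in lungs and -0.69 in culture (exact permutation p = 0.1 each, the smallest possible), and neither arm overlaps day 0. The 6 controls described one by one below do not carry this fall. Their sum was 15.6, 15.3 and 17.6 at day 0, 15.1, 16.4 and 17.7 in culture, and 24.3, 14.4 and 13.5 in lungs, so all arms overlap. Against the median targeting hairpin in place of the total both differences were positive, 1.95 and 1.79.

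The non-targeting controls were not alike. Non-targeting-shRNA-1 was at 5.37, 4.60 and 5.56 at day 0 and 14.5, 4.80 and 5.21 in lungs, with a mean log2 difference of 0.47 carried by lung A. Non-targeting-shRNA-2 was at 2.14, 1.68 and 2.08 at day 0 and 0.258, 0.0953 and 0.0713 in lungs, a difference of -4.02, with a median of -3.65 over the 16 other pools. The GFP control also split by mouse, at 7.13, 0.682 and 0.682 in lungs after 2.45, 3.13 and 3.36 at day 0. Cdkn1b, which encodes the cell cycle inhibitor p27, was at 2.39, 8.81 and 7.48 in lungs against 5.62, 5.83 and 6.51 at day 0. Its mean log2 difference was -0.15 here and positive in all 16 other pools. It was above all day 0 libraries in lungs B and C and below them in lung A. The MUC1 and PIK3CA controls were rare, at most 0.0418 per 100 targeting reads, and differed by -2.98 and -3.22 in lungs. In culture against day 0 Non-targeting-shRNA-1 differed by 0.78, Non-targeting-shRNA-2 by -2.15 and GFP by -0.89. Cdkn1b differed there by -0.17, MUC1 by -1.83 and PIK3CA by -0.84.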

How the data were processed

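The authors deposited 1 table per sample with a normalised read signal per hairpin. BWA 0.5.9 is named in the submitters' processing notes. How reads were counted and scaled, and on which build, is not given in the sources used here. Dividing each deposited signal value by the smallest of its library gave whole reads for 27241 of 27241 values (tolerance 0.01 reads). A hairpin without a row was taken as 0 reads. Tables of 10 samples held no values. All 9 libraries came from 1 sequencing lane. Gene symbols are those of the tables, and all 26 accessions matched RefSeq, where Dnahc11 is now Dnah11.

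The main test was limma 3.58.1 (R 4.3.3, trend and robust) per pool on log2(CPM + 1), from reads of the pool's own targeting hairpins with TMM factors of edgeR 4.0.16. Each fit held only the 2 arms compared and hairpins with a mean of at least 10 reads. Benjamini-Hochberg adjustment ran over the hairpins of every pool together, with a threshold of 0.05. edgeR and DESeq2 1.42.0 on the recovered reads were alternatives, as were other scalings, pseudocounts, filters, a replicate block and leaving out each library. Because the deposited unit is a scaled signal and not counts, edgeR was not the main test. Fold changes understate changes of rare hairpins. The TMM factor was 0.194 in lung A, against 0.959 and 0.908 in lungs B and C and 1.77 to 1.88 at day 0. Scripts were tested on simulated data. The labels do not say whether day 0 pellets and cultures were separate infections, so p-values measure the spread between these samples, which may be technical.

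Some items are not reported here, though they stay in every fit and count. The text could otherwise name every hairpin called in pool 14, with full statistics for up to 8 per direction, the 5 leaders of each lung, the controls and genes with 2 hairpins called alike. Members, lists and process groups were chosen with earlier results of these data known. The gene lists fixed with the tests held no targeting gene of pool 14, so genes were grouped by role after the values were seen and described by counts alone.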

Additional observations from a re-analysis of the deposited data

Results flagged for a closer look

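These hairpins differed between lung and culture libraries in the direct limma test: Akap9 TRCN0000362770 (4.83 on the log2 scale, higher in lungs) and Kcnn4 TRCN0000349504 (-5.08). Against day 0, the Akap9 hairpin was at 3.72 in lungs and -1.01 in culture, and the Kcnn4 hairpin at -5.32 and -0.06. Lung A held hairpins that belong to other pools at 1.04% of its reads, above the highest day 0 library (0.898%, mostly pool 15). Hairpins of pool 3 led them, at 0.483% of the reads.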

How the results depend on the processing

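For lungs against day 0 (12 calls), the control total gave 2 calls, the deposited values 3, DESeq2 24 and leaving out 1 library 1 to 26. For culture against day 0 (21 calls), the control total gave 34, the deposited values 32, all 3 arms in one fit 6 and leaving out 1 library 17 to 29. For lungs against culture (3 calls), edgeR gave 7, DESeq2 5, all 3 arms in one fit 6 and leaving out 1 library 2 to 8. With the control total, 4 hairpins called higher in culture turned negative, among them Itga2 TRCN0000305738 (-0.0765), Atm TRCN0000360398 (-0.131) and Hsf2 TRCN0000425088 (-0.0582). On plain shares the counts past 2-fold were 4 higher and 41 lower in lung A, 6 and 26 in lung B, and 5 higher in lung C. The inverse Simpson index gave -1.30 for the evenness of culture against day 0. Scaled to the median targeting hairpin, the control sum reversed to 1.95 in lungs and 1.79 in culture against day 0, and to 0.16 between lungs and culture. Summing only the 6 controls named here, an alternative added after seeing the data, gave 0.0555, 0.0223 and 0.0331 in the same order. Counting only pool 14 targeting reads, the sum of all 8 controls was at 0.55 in culture and -1.46 between lungs and culture. Leaving out 1 library moved the control sum between -1.15 and -0.77 in lungs, between -0.75 and -0.64 in culture and between -0.46 and -0.08 between them. With the replicate letter as a block, 6, 27 and 4 hairpins were called in the 3 comparisons. Same-letter deviations (A, B, C) correlated at -0.40, -0.23 and -0.23 for lungs and day 0. For lungs and culture the values were -0.26, -0.11 and 0.18, and for culture and day 0 they were 0.67, 0.71 and -0.12. In that last comparison A and B each went with their own letter and not across (-0.73 and -0.65), while C did not. Not every library correlated best with its own letter. With 3 libraries per arm these values cannot decide a pairing, and the main tests treat libraries as unpaired. How far each setting causes the differences in calls was not tested. With 3 libraries per arm and 1 unlike lung, the comparisons resolve only large changes, with a median SE of 0.90 for lungs against day 0 and 0.41 for culture.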
